A study of Mus musculus with 12 samples.

Results

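Livers of 12 adult male mice were divided by their level of Dbp, a transcription factor gene driven directly by the liver clock. The 2 classes were chosen by the measured Dbp signal itself, and together they hold all 12 arrays of the series. The 7 arrays with a Dbp log2 signal of 13 or more are called high-Dbp here (arrays 1, 5 and 6 from offspring of WT dams, and arrays 8, 9, 11 and 12 from offspring of UCP1-KO dams). The other 5, under 13, are called low-Dbp (arrays 2, 3 and 4 from offspring of WT dams, and arrays 7 and 10 from offspring of UCP1-KO dams). These classes were read from a measured value and are not groups of the study. The hour at which the livers were taken is not given in the sources used here.

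The study compared liver RNA by the genotype of the mother. All 12 mice were C57BL/6J males of 4 to 5 months, kept at 23 °C on standard chow, and the labels give every one of them as heterozygous (HET). Their dams were either wild type (WT, 6 mice, arrays 1 to 6) or lacked uncoupling protein 1 (UCP1-KO, 6 mice, arrays 7 to 12), the protein with which brown fat mitochondria turn fuel into heat, and HET sires were used with both. By this breeding the mother's genotype and the parent from which the intact or deleted Ucp1 allele came cannot be told apart. The labels do not say how many litters were sampled, and a p-value here covers only the variation among the mice sampled, whether or not any were littermates. In whole liver RNA, fewer cells of a type and less RNA per cell cannot be told apart.

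In the liver clock, the proteins of Arntl (BMAL1) and Clock or its relative Npas2 bind E-box sequences and switch on the Per and Cry genes, Bhlhe40, Bhlhe41, the nuclear receptor genes Nr1d1 and Nr1d2 (REV-ERB alpha and beta), and Dbp itself. PER, CRY, BHLHE40 and BHLHE41 proteins then repress that same step, while REV-ERB proteins repress Arntl, Npas2 and Nfil3 through RORE sequences that ROR proteins activate. DBP and its relatives TEF and HLF activate genes through D-box sequences, which the repressor NFIL3 also binds. Dbp and Arntl therefore run in opposite phases over the day in liver.

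Of the 52 genes searched, listed below, the promoters of 3 are shown. These genes differed at least 2-fold between the classes, and each held 1 of these 3 kinds of element within the 250 bases before the gene's start. Many other genes at least 2-fold different, such as Cish, Myc and Foxq1, were not searched. They are given 5′ to 3′ on the gene's own strand, from RefSeq on GRCm38.p6, with the element in capitals. The Per3 stretch (chr4:151044716-151044915, minus strand) held D-boxes, at 205 to 198 and at 158 to 151 bases before the start. That of Bhlhe41 (chr6:145865471-145865670, minus strand) held an E-box at 153 to 148 bases before the start. The Nfil3 stretch (chr13:52981040-52981064, minus strand) held the RORE core, read on the other strand, at 12 to 6 bases before the start.
Per3: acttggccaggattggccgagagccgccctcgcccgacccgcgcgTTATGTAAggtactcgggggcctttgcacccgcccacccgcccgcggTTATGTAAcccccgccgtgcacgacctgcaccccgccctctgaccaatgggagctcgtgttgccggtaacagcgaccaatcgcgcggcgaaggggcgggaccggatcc
Bhlhe41: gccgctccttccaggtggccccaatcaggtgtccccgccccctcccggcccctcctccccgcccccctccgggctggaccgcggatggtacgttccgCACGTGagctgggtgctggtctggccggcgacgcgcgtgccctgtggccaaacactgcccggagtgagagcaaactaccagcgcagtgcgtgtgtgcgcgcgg
Nfil3: cggcgctcggaacTGACCTActaac

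Among 32851 RefSeq promoter windows of 250 bases, 6.02% held the E-box CACGTG, 0.819% the D-box TTATGTAA or its reverse complement TTACATAA, and 2.23% the RORE core TAGGTCA or its reverse complement TGACCTA. The same windows were read for 52 genes described here (Dbp, the loop genes, Rgs16, and the genes named for classes without overlap or for likeness to Dbp), of which 48 had at least 1. An E-box was found in 7 of them (Per1, Cry1, Ciart, Bhlhe41, Tef, Lonrf3 and Arhgef18), a D-box in 1 (Per3) and a RORE core in 2 (Nfil3 and Slc45a3). A gene was counted if any of its windows matched, and some genes had several, while the shares above are of single windows. The counts of genes and the shares of windows are therefore not in the same unit. A match is a description of these letters and not a binding site.

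Dbp itself covered 5.07 log2 units over the 12 arrays. On the low-Dbp arrays its log2 signal was 11.27 on array 2, 11.89 on array 3, 10.65 on array 4, 12.36 on array 7 and 11.07 on array 10. On the high-Dbp arrays it was 13.41 on array 1, 15.70 on array 5, 14.44 on array 6, 13.09 on array 8, 14.60 on array 9, 14.13 on array 11 and 15.72 on array 12. The arrays nearest the threshold were array 7, just under it, and arrays 8 and 1, just over it, and the gap between array 7 and array 8 was 0.73. Only 15 of 10905 probe sets brighter than the negative controls spread further over the 12 arrays than Dbp, and the median spread of those probe sets was 0.96.

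Each dam group held both classes, 3 high-Dbp and 3 low-Dbp arrays with WT dams and 4 and 2 with UCP1-KO dams. Dbp averaged 13.50 ± 1.67 (SD, n = 6) in offspring of UCP1-KO dams and 12.89 ± 1.96 (SD, n = 6) in offspring of WT dams, a difference of 0.60 that the spread between mice covers (exact two-sided permutation test, p = 0.567, where the smallest p possible is 0.00217). All differences between the classes below are high-Dbp minus low-Dbp on the log2 scale, with the dam genotype as a covariate and their standard error (SE). Since the classes were cut from the same arrays, the differences are described and carry no test.

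Of 22205 probe sets other than Dbp, 24 (0.108%) were at least 2-fold higher and 12 (0.054%) at least 2-fold lower in the high-Dbp class. The clock loop supplied 6 of these: Per3, Bhlhe40 and Bhlhe41 were higher and Arntl, Npas2 and Nfil3 were lower, out of 19 loop genes measured. The loop genes as a list were split between the directions, with 10 above 0 and 9 below it and a median of 0.02, against 0.01 over all probe sets. In 33 probe sets (0.149%) every high-Dbp array lay above every low-Dbp array, and in 32 (0.144%) every one lay below. Of the loop genes only Bhlhe41 was among them. An unrelated split of 7 against 5 arrays would also leave some probe sets without overlap. How many it would leave was not worked out here, so a lack of overlap is given as a description.

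**Figure D1:**
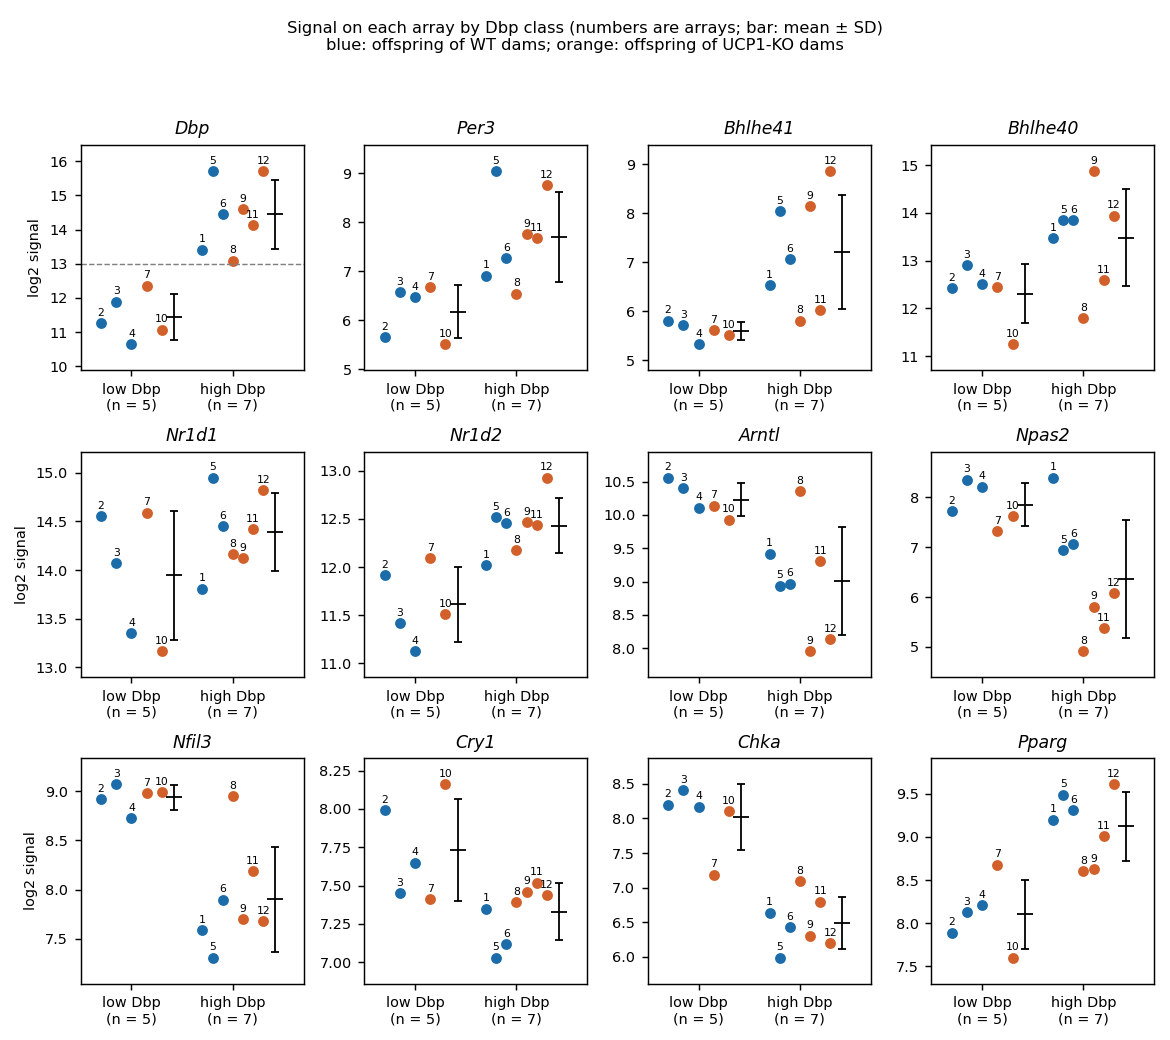
Log2 signal of 12 genes on each array (y axis), with the 5 low-Dbp arrays on the left and the 7 high-Dbp arrays on the right of each panel, numbers giving the array, colours the dam genotype, and bars the class mean ± SD. Chka separated the classes, while array 8 lay among the low-Dbp arrays for Arntl, Nfil3, Per3 and Bhlhe40, and Nr1d1 overlapped throughout.

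Among the activators, Arntl, which encodes the core activator BMAL1, was lower in the high-Dbp class. Its log2 signal was 10.56, 10.40, 10.11, 10.14 and 9.93 on low-Dbp arrays 2, 3, 4, 7 and 10, and 9.42, 8.94, 8.97, 10.36, 7.96, 9.31 and 8.14 on high-Dbp arrays 1, 5, 6, 8, 9, 11 and 12. The class means were 9.01 ± 0.81 (SD, n = 7) and 10.23 ± 0.25 (SD, n = 5), a difference of -1.17 (SE 0.40). Of the high-Dbp arrays, only array 8 reached into the low-Dbp range. The difference was -1.25 within offspring of WT dams and -1.09 within offspring of UCP1-KO dams.

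Npas2, the CLOCK relative that also pairs with BMAL1, differed by -1.24 (SE 0.37). It read 7.73, 8.36, 8.22, 7.33 and 7.62 on low-Dbp arrays 2, 3, 4, 7 and 10. On the high-Dbp arrays it read 8.40, 6.95 and 7.06 on arrays 1, 5 and 6 and 4.92, 5.81, 5.37 and 6.08 on arrays 8, 9, 11 and 12. Array 1 thus held the highest Npas2 signal of all 12 livers although its Dbp was over the threshold, and array 8 held the lowest. The median of the negative controls was 6.3, so the 4 high-Dbp livers from UCP1-KO dams were all below it, and the size of the difference rests in part on background signal. Within offspring of WT dams the difference was -0.63, and within offspring of UCP1-KO dams it was -1.93.

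Clock, the usual partner of BMAL1, differed by -0.38 (SE 0.17), from 14.11 ± 0.21 (SD, n = 5) to 13.72 ± 0.31 (SD, n = 7), with overlapping classes. Arntl2, a second BMAL gene, lay below the negative controls on all 12 arrays. The 4 activators had a median difference of -0.78.

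Of the repressors, Bhlhe41, Per3 and Bhlhe40 were at least 2-fold higher. Bhlhe41, also called Dec2, encodes an E-box binding repressor. Its log2 signal was 5.81, 5.71, 5.33, 5.61 and 5.51 on low-Dbp arrays 2, 3, 4, 7 and 10, and 6.53, 8.04, 7.07, 5.81, 8.15, 6.03 and 8.87 on high-Dbp arrays 1, 5, 6, 8, 9, 11 and 12. The low-Dbp arrays were all below the negative controls, and the high-Dbp arrays ran from there up to array 12, so the size of the difference rests in part on background signal. The difference was 1.63 (SE 0.57), and it was 1.60 with WT dams and 1.66 with UCP1-KO dams. Arrays 8 and 2 differed by only 0.0026, and after quantile normalization or median centring of the arrays the classes overlapped for Bhlhe41.

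Per3, a period gene, read 5.65, 6.57, 6.47, 6.67 and 5.51 on low-Dbp arrays 2, 3, 4, 7 and 10. On high-Dbp arrays 1, 5, 6, 8, 9, 11 and 12 it read 6.91, 9.05, 7.26, 6.54, 7.75, 7.67 and 8.75. Array 8 was the only high-Dbp array within the low-Dbp range, and arrays 5 and 12, with the highest Dbp, were also highest for Per3. The difference was 1.55 (SE 0.50), with 1.51 for WT dams and 1.59 for UCP1-KO dams. Low-Dbp arrays 2, 3, 4 and 10 were below the median of their own negative controls for Per3. The size of its difference thus rests in part on background signal.

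Bhlhe40, or Dec1, the other E-box repressor of the pair, was higher by 1.27 (SE 0.51). It read 12.43, 12.91, 12.51, 12.44 and 11.25 on low-Dbp arrays 2, 3, 4, 7 and 10, and 13.47, 13.85, 13.84, 11.79, 14.88, 12.59 and 13.94 on high-Dbp arrays 1, 5, 6, 8, 9, 11 and 12. Arrays 8 and 11 overlapped with the low-Dbp livers, and array 9 was highest.

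The other period and cryptochrome genes did not follow Dbp as a block. Per1 differed by -0.10 (SE 0.57) and Per2 by 0.25 (SE 0.41). The sign for Per1 was opposite in the dam groups, at -0.53 with WT dams and 0.38 with UCP1-KO dams. Its highest values were 8.76 on array 9, a high-Dbp liver, and 7.91 on array 3, a low-Dbp liver. Cry1 differed by -0.43 (SE 0.14), at 7.33 ± 0.18 (SD, n = 7) against 7.73 ± 0.33 (SD, n = 5), whereas Cry2 differed by 0.49 (SE 0.25). Ciart, another repressor of the activator pair, differed by 0.69 (SE 0.45), but it was above the negative controls on only 2 of the 12 arrays.

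Among the nuclear receptors, Nr1d2 followed Dbp more closely than Nr1d1 did. Nr1d2 read 11.92, 11.42, 11.13, 12.09 and 11.51 on low-Dbp arrays 2, 3, 4, 7 and 10, and 12.02, 12.52, 12.46, 12.18, 12.47, 12.44 and 12.93 on high-Dbp arrays 1, 5, 6, 8, 9, 11 and 12. Only array 1 against array 7 kept the classes from separating, and the difference was 0.78 (SE 0.19).

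Nr1d1, often used as a clock marker, read 14.55, 14.07, 13.35, 14.59 and 13.17 on low-Dbp arrays 2, 3, 4, 7 and 10. On high-Dbp arrays 1, 5, 6, 8, 9, 11 and 12 it read 13.81, 14.95, 14.45, 14.16, 14.12, 14.42 and 14.82. The classes overlapped widely, and the difference of 0.45 (SE 0.33) was smaller than the spread of 0.66 (SD, n = 5) within the low-Dbp class. Of the 4 markers other than Dbp, Per3, Arntl and Npas2 therefore differed at least 2-fold and Nr1d1 did not.

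Rora, which encodes the activator at RORE sequences, had 3 probe sets, of which the brightest differed by -0.19 (SE 0.15) and the others by 0.06 and -0.18. Rorb stayed below the negative controls on all 12 arrays.

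Of the factors that act on D-boxes, Nfil3, the repressor, was lower. It read 8.92, 9.07, 8.73, 8.98 and 8.99 on low-Dbp arrays 2, 3, 4, 7 and 10, with an SD of 0.13 (n = 5), and 7.59, 7.31, 7.90, 8.95, 7.70, 8.19 and 7.68 on high-Dbp arrays 1, 5, 6, 8, 9, 11 and 12. Apart from array 8, every high-Dbp liver was below every low-Dbp liver. The difference was -1.09 (SE 0.24). Of the activators related to DBP, Hlf differed by -0.07 (SE 0.26), and Tef differed by 0.47 (SE 0.25) but was above the negative controls on only 2 arrays.

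Array 8 was thus the liver that went against its class most often. Its Dbp of 13.09 was the lowest in the high-Dbp class, and its Arntl, Nfil3, Per3 and Bhlhe40 lay in the low-Dbp range, while its Npas2 did not. Array 8 also stood apart over all probe sets, together with arrays 10 and 11. On the first principal component, which held 19.8% of the variance, arrays 8, 11 and 10 scored 37.5, 34.2 and 26.3. No other array exceeded 1.7. Arrays 8, 10 and 11 were all from UCP1-KO dams, whose arrays 7, 9 and 12 scored -2.4, 1.7 and 0.6. The WT-dam arrays ran from -24.1 to 1.2.

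The 19 loop genes, 20 clock output genes and 9 drug metabolism targets of DBP, TEF and HLF that were measured make 48 genes. With all 12 arrays, the classes did not overlap for 3 of these 48, Bhlhe41 (higher) and Lonrf3 and Slc45a3 (lower). Without array 8, they did not overlap for 7: Per3, Bhlhe41 and Tef higher (0.248% of all probe sets) and Arntl, Nfil3, Lonrf3 and Slc45a3 lower (0.234%). Without array 1, they did not overlap for 7, of which Bhlhe41, Lonrf3 and Slc45a3 were also among those without array 8: Bhlhe41, Nr1d2 and Wee1 higher (0.243%) and Npas2, Lonrf3, Elovl3 and Slc45a3 lower (0.207%). Without arrays 1, 7 and 8, those nearest the threshold, 6 were higher (0.811%) and 6 lower (0.639%). Without arrays 8, 10 and 11 the numbers were 5 (0.829%) and 4 (0.725%). The shares of all probe sets without overlap, in parentheses, went up with the counts. Both sets that left out several arrays were chosen after seeing the data, when arrays 1 and 8 were known as exceptions. Smaller classes also overlap less by construction, so the higher counts are a description only.

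**Figure D2:**
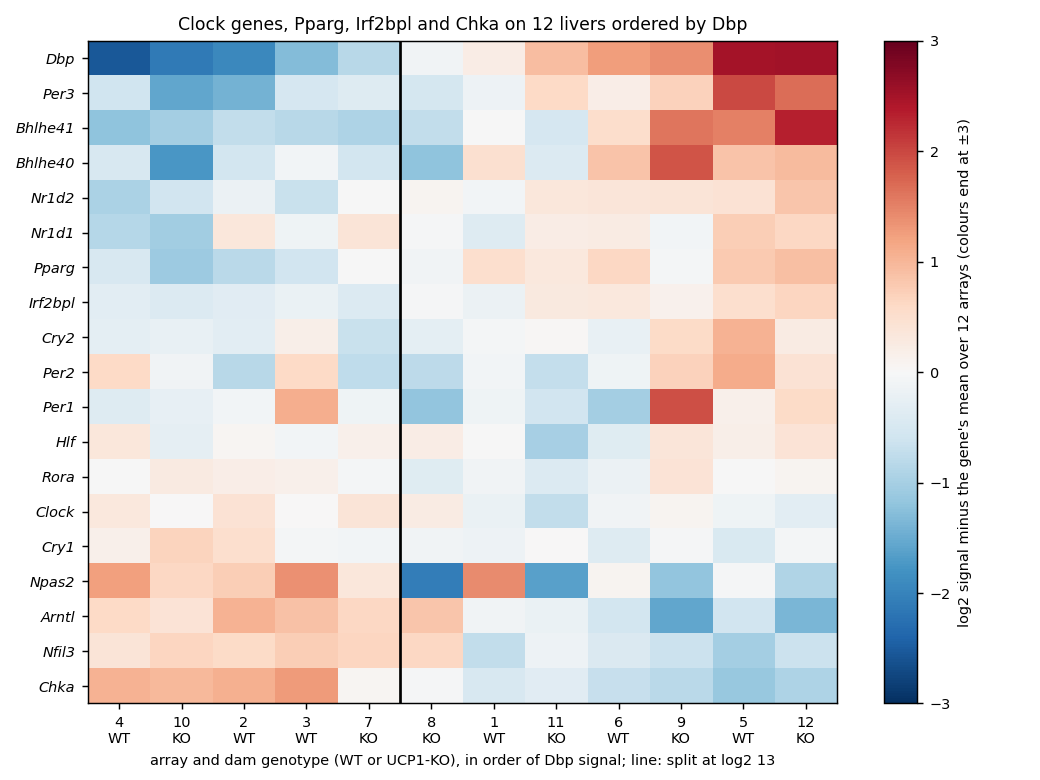
Log2 signal minus the gene's own mean over 12 arrays (colour, ending at 3 in either direction) for 19 genes in rows, with arrays in columns ordered by Dbp and the dam genotype under each. Per3, Bhlhe41, Nr1d2 and Pparg are mostly red right of the line at log2 13 and Arntl, Npas2, Nfil3 and Chka mostly blue, with array 8 the exception for Arntl and Nfil3 and array 1 for Npas2.

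Several loop genes were among the most variable transcripts of these livers irrespective of the classes. Over the 12 arrays the log2 signal spanned 3.64 for Bhlhe40, 3.54 for Per3, 3.54 for Bhlhe41, 3.48 for Npas2, 3.11 for Per1 and 2.60 for Arntl. Of the 10905 probe sets brighter than the negative controls, 54 spanned more than Bhlhe40 and 155 more than Arntl. Rora, in contrast, spanned 0.82, less than 7329 of them.

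As a description of likeness over the 12 arrays, which share 1 normalization, the signals with the highest Pearson correlation with Dbp were those of Irf2bpl (r = 0.93), Per3 (0.92), Nr1d2 (0.92), Pparg (0.89) and Bhlhe41 (0.89). The lowest were those of Chka (-0.95), Nfil3 (-0.85), Clpx (-0.85), Arntl (-0.83) and Zfp932 (-0.83). Of these 10 genes, 5 belong to the clock loop. The 10 were picked by likeness to the gene that set the classes, and that count was not tested.

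Pparg, a nuclear receptor gene best known from fat cells, read 7.89, 8.13, 8.21, 8.68 and 7.60 on low-Dbp arrays 2, 3, 4, 7 and 10, and 9.20, 9.49, 9.31, 8.60, 8.63, 9.01 and 9.61 on high-Dbp arrays 1, 5, 6, 8, 9, 11 and 12. Arrays 8 and 9 fell just below array 7, and the difference was 1.05 (SE 0.24). All 4 adipocyte markers measured, Adipoq, Plin1, Lep and Retn, lay below the negative controls in both classes.

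Chka, which encodes choline kinase alpha, was the clearest opposite of Dbp. It read 8.20, 8.41, 8.17, 7.19 and 8.11 on low-Dbp arrays 2, 3, 4, 7 and 10, and 6.64, 5.99, 6.43, 7.09, 6.31, 6.80 and 6.20 on high-Dbp arrays 1, 5, 6, 8, 9, 11 and 12. The classes did not overlap, although arrays 7 and 8, on either side of the Dbp threshold, were also neighbours for Chka. The difference was -1.51 (SE 0.26), with -1.91 among WT-dam livers and -1.05 among UCP1-KO-dam livers.

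The 20 clock output genes measured had a median difference of 0.09. Only Rgs16, a regulator of G protein signalling with a daily rhythm in liver, differed at least 2-fold, by 1.64 (SE 0.83). It ranged from 5.49 to 9.07 on the low-Dbp arrays and from 6.48 to 9.96 on the high-Dbp arrays, with low-Dbp array 2 at 9.07 above 4 of the high-Dbp arrays. Slc45a3 was lower without overlap, at 8.54 ± 0.23 (SD, n = 7) against 9.42 ± 0.29 (SD, n = 5), as was Lonrf3, at 5.91 ± 0.43 (SD, n = 7) against 6.81 ± 0.34 (SD, n = 5). Lonrf3 was above the negative controls on only 7 arrays, so the size of its difference rests in part on background signal. The next genes were singled out after their values were seen. Wee1, a cell cycle kinase gene controlled by the clock, differed by 0.59 (SE 0.23), Upp2, a uridine phosphorylase gene, by 0.71 (SE 0.28), Nampt, which encodes an enzyme of NAD synthesis, by 0.41 (SE 0.10), and Elovl3, a fatty acid elongase gene, by -0.94 (SE 0.40).

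Genes of drug metabolism known as targets of DBP, TEF and HLF had a median difference of 0.18 over the 9 measured, with 0 at least 2-fold. Cyp2a4, a cytochrome P450 gene, was 13.31 ± 0.73 (SD, n = 7) against 12.59 ± 0.56 (SD, n = 5). Alas1, the rate-limiting enzyme of haem synthesis in liver, was 15.01 ± 1.15 (SD, n = 7) against 14.25 ± 1.96 (SD, n = 5), and its low-Dbp arrays spread from 12.01 to 16.26. The difference for Alas1 was 0.89, but 0.28 without array 10. The 13 kinases and ubiquitin ligases that act on clock proteins had a median of 0.03 and stayed between -0.13 and 0.26, with Prkaa2, an AMP-activated kinase subunit, at the top.

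Outside the clock lists, some of the largest differences belonged to genes with a second pattern. Cish, a growth hormone target, Myc, a growth-related transcription factor gene, Foxq1, a forkhead factor gene, and Phlda1 were higher in the high-Dbp class by 2.50 (SE 0.99), 2.48 (SE 0.61), 2.24 (SE 0.80) and 2.23 (SE 0.76). Foxq1 and Phlda1, like the further genes of these paragraphs that no list holds, were named because they differed at least 2-fold and so after their values were seen.

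Foxq1 read 6.88, 6.58, 6.50, 6.98 and 6.90 on low-Dbp arrays 2, 3, 4, 7 and 10. On high-Dbp arrays 1, 5, 6 and 12 it read 10.58, 10.20, 10.23 and 10.16, but on high-Dbp arrays 8, 9 and 11 it read 6.34, 6.55 and 7.23. The high-Dbp livers therefore fell into a bright set of 4 and a dim set of 3 for this gene, with nothing between 7.23 and 10.16.

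Cish had the same 4 livers on top, at 11.03, 9.40, 10.41 and 9.83 on arrays 1, 5, 6 and 12. Arrays 8 and 9 were at 5.68 and 5.73, within the low-Dbp range of 5.15 to 7.71, and array 11 was at 7.84. Myc read 12.35, 11.53, 10.67 and 9.59 on arrays 1, 5, 6 and 12, 8.92 on array 11, and 8.05 and 7.37 on arrays 8 and 9, against a low-Dbp range of 6.72 to 8.13. Gadd45g, a stress-inducible growth arrest gene, was bright on arrays 1, 5 and 6 alone, at 10.08, 9.84 and 9.94, and no other liver exceeded 7.55.

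The dam groups gave unlike values for these genes. The class difference was 3.90 with WT dams and 0.92 with UCP1-KO dams for Cish, 3.66 and 1.15 for Myc, 3.68 and 0.63 for Foxq1, 3.30 and 1.03 for Phlda1, and 2.94 and 0.10 for Gadd45g. Whether the class difference itself differed by dam was not tested. For Bhlhe40 the values were 1.10 and 1.46, and for Nfil3 they were -1.31 and -0.85.

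**Figure D3:**
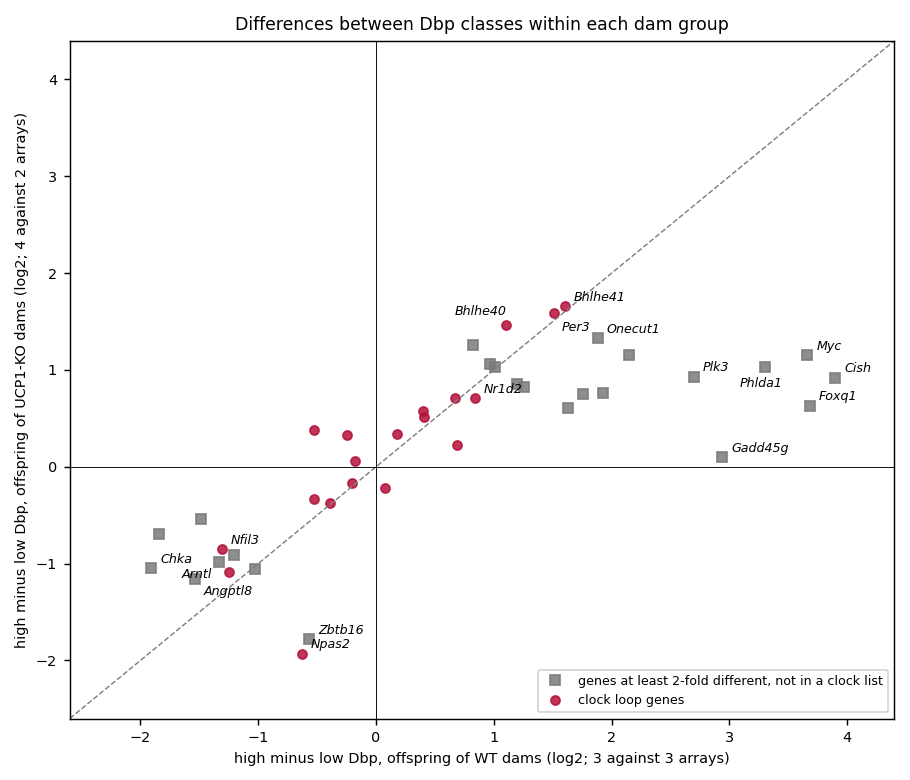
Difference between the Dbp classes (log2, high minus low) within offspring of WT dams (x axis) against that within offspring of UCP1-KO dams (y axis), for 19 clock loop genes (circles) and 24 other probe sets at least 2-fold different (squares), with equality dashed. Per3, Bhlhe41 and Arntl lie near the dashed line, Cish, Myc, Foxq1, Phlda1 and Gadd45g far to its right, and Npas2 and Zbtb16 below it.

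Other genes at least 2-fold higher were Plk3, a polo-like kinase gene, at 1.87 (SE 0.58), Onecut1, a hepatocyte transcription factor gene, at 1.62 (SE 0.81), Arid5b at 1.28 (SE 0.57), Nudt7, a peroxisomal hydrolase gene, at 1.38 and 1.15 on its 2 probe sets, and Slc2a5, the fructose transporter gene, at 1.01 (SE 0.30). Clec2h, E2f8, Gpcpd1 and 1700018L02Rik completed the bright named genes in that direction, at 1.04, 1.02, 1.03 and 1.68. Without array 10 the difference for E2f8 was 0.64.

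Genes at least 2-fold lower included Ppp1r3c and Ppp1r3b, which encode subunits that direct a phosphatase to glycogen. Ppp1r3c was 12.32 ± 1.04 (SD, n = 7) against 13.54 ± 0.49 (SD, n = 5), and Ppp1r3b was 11.75 ± 1.00 (SD, n = 7) against 12.76 ± 0.49 (SD, n = 5). Angptl8, a secreted regulator of lipoprotein lipase that responds to feeding, differed by -1.36 (SE 0.92), with array 9 at 14.27, the highest of all 12 livers, in the high-Dbp class, and by -0.88 without array 3. Baiap2, a scaffold gene of the actin skeleton, did not overlap, with 7.65 to 8.57 on the high-Dbp arrays and 8.65 to 9.86 on the low-Dbp arrays.

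Probe sets without overlap are listed next as a description, since an unrelated split of the arrays would also leave some. Above the negative controls, 14 named probe sets were higher without overlap and 16 lower, and of these only Bhlhe41, Chka and Baiap2, given above, differed at least 2-fold. The others that were higher included Gpr146, an orphan receptor gene, at 0.77 (SE 0.16), Irf2bpl at 0.58 (SE 0.14), Steap4, a metalloreductase gene, at 0.54 (SE 0.18), Wdsub1 at 0.51, Bach1, a repressor of haem oxygenase, at 0.48 (SE 0.17), Akr1c19 at 0.47 and Wdr41 at 0.44. Hykk, Cd300lf, Pcgf5, 1810013L24Rik, Smim14 and Socs4 lay between 0.43 and 0.26. Of those lower without overlap, the 15 with the largest differences included Zfp707 at -0.83, Avpr1a, a vasopressin receptor gene, at -0.70 (SE 0.18), Slc30a10, a manganese exporter gene, at -0.67 (SE 0.16), Cspp1 at -0.64 and Piga at -0.61. Wdr91, Arhgef18, Map3k4, Slc26a6, Eya3 and Fryl lay between -0.50 and -0.27.

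Gene lists for cues that can set or mask a liver rhythm were compared in the same way. The 10 glucocorticoid response genes had a median of -0.41, with 8 below 0, where 10539 of all 22205 probe sets were. Of those 8, the SE exceeded the size of the difference for Mt1 (-0.43, SE 1.26), Mt2 (-0.39, SE 1.59) and Fkbp5 (-0.09, SE 0.15). Zbtb16 was lower, at 9.87 ± 0.43 (SD, n = 7) against 10.98 ± 1.18 (SD, n = 5), a difference of -1.14 that was -0.67 without array 7, and so was Tsc22d3 (GILZ), at 10.08 ± 1.01 (SD, n = 7) against 11.09 ± 0.71 (SD, n = 5). Array 3 alone, at 12.33, carried the top Tsc22d3 value among the low-Dbp livers. The classes overlapped for all 10.

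The 14 fasting response genes had a median of -0.08, and 1 was at least 2-fold lower, Igfbp1, a fasting-induced binding protein gene, at 9.31 ± 1.68 (SD, n = 7) against 10.42 ± 1.42 (SD, n = 5). The difference for Igfbp1 was -1.17, but -0.61 without array 2. The 13 feeding and lipogenic genes had a median of 0.25 and none reached 2-fold. Thrsp, a lipogenic regulator, came nearest at 0.97 (SE 0.63), followed by Pklr, liver pyruvate kinase, at 0.94 (SE 0.71), or 0.61 without array 10. Pklr read 11.26, 10.77 and 10.98 on arrays 8, 10 and 11, the livers apart on the first principal component, and at least 13.03 on all others.

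All 11 cholesterol synthesis genes measured were above 0, where 11666 of all 22205 probe sets were. Their median was 0.30, and Mvd was the highest at 0.53 (SE 0.42). Within the dam groups Mvd was 1.02 with WT dams and -0.03 with UCP1-KO dams, and Idi1 0.79 and 0.03. The 11 genes ran from 0.34 (Srebf2) to 1.02 (Mvd) with WT dams. With UCP1-KO dams they ran from -0.19 (Srebf2) to 0.19 (Lss), so the rise was not seen in both dam groups. The 7 growth hormone pulse genes had a median of 0.29, with Cish and Onecut1 at least 2-fold higher. The 9 immediate early genes had a median of 0.12, and Myc alone reached 2-fold. The 9 heat shock genes, whose liver transcripts can follow body temperature, had a median of -0.03, with Dnajb1 at -0.36 (SE 0.17) and Hspa1b at -0.23 (SE 0.15). The cold-inducible genes Cirbp and Rbm3 differed by 0.13 and 0.14.

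All 7 hepatocyte markers measured were above the negative controls, with Alb, serum albumin, between 19.24 and 19.72 on every array, and their mean log2 signal was 18.24 to 18.30 on the high-Dbp and 18.00 to 18.33 on the low-Dbp arrays. No marker of another cell type differed 2-fold. The mean over 8 Kupffer cell and macrophage markers, all above the negative controls, was 9.44 to 10.15 against 9.28 to 10.81, over 7 sinusoidal endothelial markers, all above, 10.79 to 11.15 against 10.82 to 11.06, and over 7 stellate cell markers, 6 above, 8.73 to 9.13 against 8.47 to 9.05. Over 5 cholangiocyte markers, 2 above, it was 5.71 to 6.19 against 5.77 to 6.08, and over 7 lymphocyte markers, 1 above, 5.71 to 6.11 against 5.62 to 6.16. All 5 neutrophil markers measured were below the negative controls, and the only red cell gene measured, Alas2, differed by 0.14 (SE 0.12).

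Single markers varied more than the lists. Sox9, a cholangiocyte gene that some hepatocytes also express, was 8.77 ± 0.37 (SD, n = 7) against 9.47 ± 0.45 (SD, n = 5), while Epcam, of the same list, lay below the negative controls. Lyve1, an endothelial gene, was brightest on arrays 8, 11 and 10, at 9.69, 9.15 and 8.64, and Marco, a macrophage receptor gene, on arrays 2, 8 and 11, at 9.10, 8.62 and 7.82. Both orders cut across the Dbp classes. The part of cell mix in the class differences was not tested. The 8 pericentral and 6 periportal hepatocyte genes had medians of -0.08 and -0.07, with Pck1, the gluconeogenic enzyme gene, at -0.52 (SE 0.25).

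The median of the negative controls was 5.96 to 6.44 on the high-Dbp and 6.14 to 6.62 on the low-Dbp arrays, and the median signal was 6.19 to 6.28 in both.

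The study's own comparison, by the mother's genotype, was then repeated with the Dbp class as a covariate, and this is the only contrast here that was tested across all probe sets (limma, Benjamini-Hochberg adjustment over 22206 probe sets). With the class in the model 5 probe sets (0.0225%) had an adjusted p under 0.05, with 1 higher and 4 lower where the mother was UCP1-KO. Without it, 8 did (0.036%), and all 5 were among those 8. At an unadjusted p under 0.05 there were 2747 with and 2906 without the class. At an adjusted p under 0.1 there were 60 and 107.

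Csad, the enzyme that makes the taurine precursor hypotaurine, was the probe set that rose. It read 13.50, 11.35, 10.82, 10.93, 11.66 and 12.39 on arrays 1 to 6 from offspring of WT dams, and 13.90, 14.01, 14.69, 14.59, 13.88 and 14.18 on arrays 7 to 12 from offspring of UCP1-KO dams. The dam groups did not overlap, although array 1 came close. The difference was 2.31 with a 95% interval of 1.65 to 2.96 (limma, adjusted p = 0.0117). Over the alternatives the adjusted p ran from 0.000183 to 0.705 and was under 0.05 in 15 of 23.

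Plppr2, a phospholipid phosphatase-related gene, fell on both of its probe sets, by 1.33 and 1.10 on the log2 scale (adjusted p = 0.0426 and 0.0487 by limma). Sult5a1, a sulfotransferase gene, fell by 1.17 (adjusted p = 0.0117 by limma) but lay below the negative controls in both groups. The last of the 5 was an unnamed probe set. Odf3b, Mier2 and Polr1e, which passed without the class term, had adjusted p-values of 0.0514, 0.0568 and 0.0585 with it (limma).

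The number of calls rested on single livers. It was 119 without array 2 and 36 without array 7, and 0 without array 3, 6 or 10. It was 1 without array 1, 2 without array 8, and 3 without array 11 or array 12.

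None of the 48 loop, output and drug metabolism genes passed for dam genotype with the class in the model (limma, adjusted p from 0.0961 to 0.997). Of the 48, 8 (16.7%) had an unadjusted p under 0.05, against 12.4% of all probe sets. These 8 were 4 of the 9 drug metabolism targets, 3 of the 20 clock output genes and, among the 19 loop genes, Npas2 alone. Npas2 averaged 7.79 ± 0.65 (SD, n = 6) with WT dams and 6.19 ± 1.08 (SD, n = 6) with UCP1-KO dams, a class-adjusted difference of -1.39 with a 95% interval of -2.00 to -0.78 (limma, adjusted p = 0.0962). Without array 2 the difference was -1.52 (limma, adjusted p = 0.0312), and leaving out each other array in turn gave adjusted p-values of 0.073 to 0.25. A further probe set of Rora differed by 0.41 (95% interval 0.08 to 0.73, limma, adjusted p = 0.292), while its brightest differed by 0.02. For the brightest probe sets of the other loop genes the 95% intervals included 0, and that of Arntl, for example, ran from -0.88 to 0.42.

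**Figure D4:**
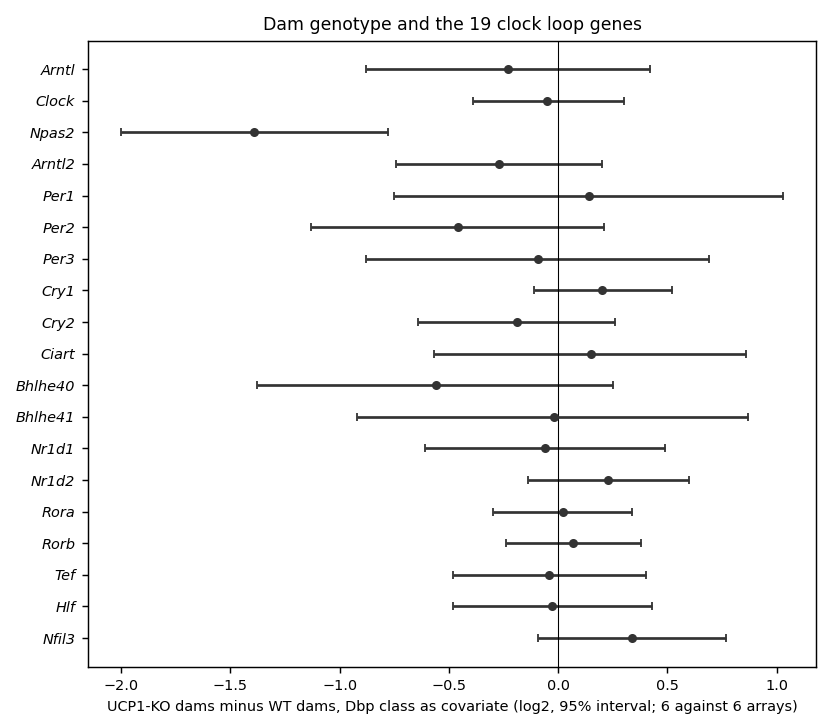
Difference by mother's genotype (UCP1-KO minus WT dams, log2, x axis) with the Dbp class as a covariate for 19 clock loop genes, points giving the estimate and bars the 95% interval over 6 against 6 arrays. The interval of Npas2, from -2.00 to -0.78, is the only one apart from 0.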

How the data were processed

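Total liver RNA of 12 mice was labelled with biotin and hybridised to 1 expression array per mouse, per the labels. The authors deposited 1 log2 signal per probe set and array, for which the submitters' processing notes name the Transcriptome Analysis Console and RMA. Their versions are not given in the sources used here. RMA makes the arrays alike in distribution and compresses differences between dim probe sets.

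The 6640 control rows were left out, except that signals are set against the median of the 5222 negative controls, and no filter on dim signals was used. The remaining 22206 probe sets were fitted by lmFit of limma 3.58.1 (R 4.3.3), with dam genotype and Dbp class as terms. The class differences are given with their SE and no p. The dam genotype was tested with eBayes, two-sided, with Benjamini-Hochberg adjustment, and an adjusted p under 0.05 was a call. The fit was tested on simulated data with independent noise for each probe set. There the dam test called 18% of differences of 0.5 log2 added to probe sets picked at random, 86% at 1 and 100% at 2 and 3. It also made 5 false calls. These shares do not carry over to the most variable genes. In the data, dam differences of -2.21 for Pklr and -2.00 for Myc were not called (limma, adjusted p = 0.125 and 0.115). The platform annotation gave 1 gene symbol to 19572 probe sets and none to 2634.

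The members, gene lists and tests were chosen with earlier results of these data known. Named genes are all loop genes, members of each other list that differed at least 2-fold or else the 2 of largest difference, the 15 probe sets a direction of largest difference without overlap, the 5 highest and 5 lowest in correlation with Dbp, those called by dam genotype, and those at least 2-fold different. The brightest probe set of a gene was used. Alternatives were quantile normalization, median centring, leaving out dim probe sets (50% or 25%), the negative controls as a covariate, other terms, a variance trend, a 1.5-fold threshold and leaving out arrays. The number of arrays limits the precision.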

Additional observations from a re-analysis of the deposited data

Results flagged for a closer look

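Of 232 groups of 5, 6 or 7 arrays, 16 had 1 array far from the others by Dixon's criterion, which chance alone gives in about 5% of groups. Among the clock genes these were Per1 on low-Dbp array 3, at 7.91 with the next at 6.75, and Bhlhe40 on low-Dbp array 10, at 11.25 with the next at 12.43. Chka on low-Dbp array 7 was at 7.19, nearest to the high-Dbp arrays, with the next at 8.11.

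Array 10 was also lowest of the low-Dbp arrays for Bach1 (9.56), Socs4 (8.22) and 1700018L02Rik (5.05). Array 3 was highest for Tsc22d3 (12.33) and lowest for Steap4 (11.61) and Alb (19.24), and array 2 was highest for Marco (9.10) and Pdgfrb (8.89). Among the high-Dbp arrays, array 12 was highest for Bach1 (11.07) and 1810013L24Rik (11.07), array 9 was lowest for Rbm3 (11.36) and Eya3 (9.79), and array 1 was lowest for Alb (19.63), where the next was at 19.67.

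For Rorb the class difference was -0.25 within offspring of WT dams and 0.33 within offspring of UCP1-KO dams, and in each dam group the classes did not overlap. That difference between dam groups was not tested, and Rorb was below the negative controls on all 12 arrays.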

How the results depend on the processing

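The 31 bright named probe sets at least 2-fold different kept their sign in every one of the 24 alternatives tried for each. Since they were picked for a large difference on these same arrays, a kept sign was likely from the start. On leaving out at least 1 array, 13 of them fell under 2-fold, and 4 shrank by over 1.5 times (Igfbp1, Angptl8, Zbtb16 and E2f8). Of 21 loop gene probe sets, 5 switched sign in at least 1 alternative (Per1, Hlf, Arntl2, Rorb and the second of Rora), and 0 named genes did under quantile normalization or median centring.

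The count at least 2-fold different, 36, was 173 at 1.5-fold, 72 without arrays 1, 7 and 8, and 31 to 56 leaving out each array in turn. The count without overlap, 65, was 32 without the dimmer 50% and 43 without the dimmest 25% of probe sets, 165 with the negative controls as a covariate, 643 without WT-dam arrays 3 to 6, 322 without arrays 1, 7 and 8, 345 without arrays 8, 10 and 11, and 88 to 153 leaving out each array. Of the 48 loop, output and drug metabolism genes, 3 were without overlap. That count was 5 without WT-dam arrays 3 to 6, 12 without arrays 1, 7 and 8, 9 without arrays 8, 10 and 11, and 3 to 7 leaving out each array. Smaller classes overlap less by construction.

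The 5 calls by dam genotype were 3 after quantile normalization, 2 without the dimmer 50% and 2 without the dimmest 25% of probe sets, 1 with the negative controls as a covariate, 0 without WT-dam arrays 3 to 6, 0 without arrays 8, 10 and 11, 8 with no class term, 11 with the Dbp level in place of the class, and 0 to 119 leaving out each array. Calls among the 48 loop, output and drug metabolism genes ran from 0 to 1. The cause was not tested. The difference in Dbp by dam genotype ran from 0.152 to 1.16 leaving out each array. The sets without arrays 1, 7 and 8 and without arrays 8, 10 and 11 were chosen after seeing the data. No paired analysis was possible because the dam groups share no replicate number.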
